A study of Mus musculus with 18 samples.

Results

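The genes described here are a list of 39 mouse genes of lipid synthesis, lipid storage and its control in sebocytes, the lipid-filled cells of the sebaceous gland. They were taken by gene symbol from a table of read counts for 21011 genes. Of the 39, 37 had a row and 36 had enough reads to be tested. Mogat2 and Thrsp are not analysed here, and the droplet protein Plin5 had 0 to 9 counts per mouse and was not tested. The table holds RNA of the epidermal side of dorsal skin from 18 mice, all labelled as in the resting phase (telogen). Genes of growing hair go against that label in 8 of them: Krt71, a keratin of the inner root sheath, had 373 to 2293 counts in KR control 6, KR 3, KR 4, KR 5, LR control 2, LR 2, KN1 2 and KN1 4, and 2 to 49 in the other 10. All mutants had received tamoxifen at 8 weeks of age to switch on a Cre recombinase, and skin was collected 10 weeks later. The KR group (4 mice, numbered 1, 3, 4 and 5) carried K14-CreERT, driven by a keratin promoter of the basal layer, and deletion of Rbpj, which binds DNA and carries the Notch signal to target genes. LR mice (3 mice) carried the same deletion through Lrig1-CreERT2, whose promoter is active in the upper hair follicle and its glands. KN1 mice (4 mice) carried deletion of the receptor gene Notch1 under a driver written K14-CreERT1 in the labels. Each mutant group had its own controls from the same batch or litter: 2 mice for KR (controls 4 and 6), 3 for LR (controls 2, 3 and 5) and 2 for KN1 (controls 1 and 7). The labels do not say which alleles the controls carried, and give tamoxifen in a treatment text shared by all samples.

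Sebocytes mature by filling with lipid and then burst to release it as sebum, a mixture of wax esters, triglycerides and other esters. Carbon leaves mitochondria as citrate, is turned into acetyl-CoA and built into fatty acids, which are lengthened, desaturated and esterified. The nuclear receptor Pparg is a main switch of sebocyte maturation, and the melanocortin receptor Mc5r is known for its part in sebum secretion. In such bulk samples, fewer sebocytes, less RNA per sebocyte and a change in other cells of the sample cannot be told apart.

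Promoter windows of 300 bases, from 250 bases before a start site to 50 after it, were taken from RefSeq on GRCm38.p6 and matched 28 of the 39 genes through 37 windows. Because 2 of the 3 mutant groups carry a deletion of Rbpj, its binding word was searched first, as GTGGGAA on both strands. It was found in 2 of the 37 windows (5.41%), 1 each of Plin2 and Pparg, against 6.38% of the 32851 windows searched. The word of the sterol response factors, TCACNCCAC, stood in 1 of 37 windows, that of Acsl1, against 1.24%. The E-box CACGTG was in 5 windows (13.5% against 7.15%), CCAAT in 21 windows (56.8% against 37.4%) and the PPAR element, AGGTCA repeated after any 1 base, in 0 windows against 0.0396%. Matches are descriptions of letters only. The windows with the Rbpj word are shown first, then those at both RefSeq start sites of Me1, the 1 gene of the list that passed the test in any mutant, and of Fasn, the fatty acid synthase. Capitals mark matches to the Rbpj word, CCAAT and CACGTG on either strand. In the Fasn window, a CCAAT and a reverse ATTGG overlap in the run CCAATTGG. The first Me1 window holds none of the 5 words on either strand, and the second holds 1 CCAAT, read as ATTGG, at position -208 from its start site.
Plin2, chr4:86670010-86670309, minus strand: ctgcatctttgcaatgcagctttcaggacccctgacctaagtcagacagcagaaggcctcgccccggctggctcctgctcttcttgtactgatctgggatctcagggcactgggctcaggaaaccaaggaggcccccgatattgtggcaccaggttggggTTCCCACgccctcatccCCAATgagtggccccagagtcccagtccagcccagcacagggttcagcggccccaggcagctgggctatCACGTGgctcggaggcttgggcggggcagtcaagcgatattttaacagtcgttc
Pparg, chr6:115421816-115422115, plus strand: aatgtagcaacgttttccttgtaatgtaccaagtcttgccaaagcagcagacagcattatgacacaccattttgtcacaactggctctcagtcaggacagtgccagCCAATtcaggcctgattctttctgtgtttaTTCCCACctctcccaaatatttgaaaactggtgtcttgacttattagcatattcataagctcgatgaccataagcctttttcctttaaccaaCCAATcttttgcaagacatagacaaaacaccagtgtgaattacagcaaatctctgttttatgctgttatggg
Me1, chr9:86695865-86696164, minus strand: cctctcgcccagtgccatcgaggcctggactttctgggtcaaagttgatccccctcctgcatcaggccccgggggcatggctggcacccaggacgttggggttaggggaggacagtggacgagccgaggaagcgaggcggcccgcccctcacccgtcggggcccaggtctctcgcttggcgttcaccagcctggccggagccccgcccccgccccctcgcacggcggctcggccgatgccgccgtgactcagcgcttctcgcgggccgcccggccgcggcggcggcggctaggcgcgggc
Me1, chr9:86687228-86687527, minus strand: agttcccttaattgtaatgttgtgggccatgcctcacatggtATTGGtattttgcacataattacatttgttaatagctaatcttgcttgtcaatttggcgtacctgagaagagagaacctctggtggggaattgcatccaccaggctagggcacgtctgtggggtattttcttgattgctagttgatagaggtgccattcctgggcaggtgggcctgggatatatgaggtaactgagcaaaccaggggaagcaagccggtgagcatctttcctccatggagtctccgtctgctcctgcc
Fasn, chr11:120824498-120824797, minus strand: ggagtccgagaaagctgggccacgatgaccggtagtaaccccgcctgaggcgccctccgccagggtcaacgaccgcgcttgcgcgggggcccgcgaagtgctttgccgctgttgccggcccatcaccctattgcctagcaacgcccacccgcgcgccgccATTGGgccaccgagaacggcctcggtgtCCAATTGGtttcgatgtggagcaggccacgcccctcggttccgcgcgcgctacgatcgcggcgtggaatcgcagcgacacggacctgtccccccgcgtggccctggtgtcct

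Library totals ran from 8076316 to 21216169 counts. KR control 4 and KN1 control 1, the deepest, merge 2 sequencing occasions of 1 mouse. Rbpj was at 40.9 to 45.9 CPM (counts scaled to library size with TMM factors) in KR mice against 58.1 and 60.8 CPM in their controls, and at 29.9 to 37.9 CPM in LR mice against 42.7 to 73.1 CPM. Neither difference passed the test (adjusted p = 0.135 in KR and 0.0659 in LR), although no mutant mouse reached its lowest control. Notch1 was at 81.9 to 156 CPM in KN1 mice against 172 and 251 CPM (log2 fold change -0.91, adjusted p = 0.0251). The deleted part is not given in the labels, and reads outside it still count. Nothing in the labels says which mice shared a litter, and p-values reflect the variation among these mice only.

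Divided by exon length, the most abundant of the genes in the 7 controls was Scd1, the delta-9 desaturase, at 355 ± 73.2 CPM per kb (SD, n = 7). Apoc1, an apolipoprotein, followed at 208 ± 87.7, then the elongase Elovl6 at 131 ± 17.7, the diacylglycerol acyltransferase Dgat2 at 124 ± 31.9 and the acyl-CoA synthetase Acsbg1 at 122 ± 31.6 CPM per kb. These 3 levels differ by less than their spread over control mice. The desaturase Fads2 had the lowest per-length level of the tested genes, 0.419 CPM per kb. Part of the exon sequence of some genes is repeated elsewhere: 30.4% of the 50-base words of Acaca are shared, mostly with Gm5182, 22.9% of Me1, mostly with Gm7049, and 15.6% of Hsd3b6, mostly with Hsd3b3. For Scd1 and Scd3 the shared part was 4.56% and 6.54%. Genes on the opposite strand overlap 12.6% of the exon bases of Far2 and 9.91% of those of Acsl1. Reads of such shared or overlapping parts may have been split between genes or lost.

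In KR skin no gene of the list passed the test, and the mice differed widely among themselves. Most of the enzymes were high in KR 3 and KR 5, while KR 1 and KR 4 were near or below the controls. The mean log2 CPM over the 36 genes was 5.73, 6.98, 6.08 and 6.96 in KR 1, KR 3, KR 4 and KR 5 and 6.20 and 6.01 in KR control 4 and KR control 6. Both KR controls were exceeded by KR 3 and KR 5, and KR 1 lay below both. None of the 36 genes passed an adjusted p of 0.05 in edgeR's quasi-likelihood test, where 264 of 16517 genes (1.6%) did. At an unadjusted p under 0.05 there were 8 of the 36, against 22.9% of all genes. With DESeq2, 2 of the 36 passed (Acsl1 and Slc25a1), where 1036 of 16517 genes did. The median log2 fold change, mutant minus control, was 0.62 over the list and 0.04 over all tested genes. It was positive for 27 of 36 genes, against 53.4% of all genes. Without KR 5 the median was 0.36, and without KR 1 it was 0.80. Without the 8 mice that express hair genes, KR 1 and KR control 4 alone remain, and this pair gave a median of -0.49. Each lone mouse was assumed to vary like the other groups. By mean over the list, KR 1 was the lowest KR mouse and KR control 4 the higher control. By sex-linked genes KR 1 was male and KR control 4 female. Hair genes, sex and mouse cannot be told apart in this pair. In 4 genes every KR mouse was above both controls (Slc25a1, Lpin1, Dgat1 and Hsd17b13), against 19% of all genes, and in 3 every KR mouse was below (Me1, Acsl1 and Dgat2), against 19.5%.

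**Figure D1:**
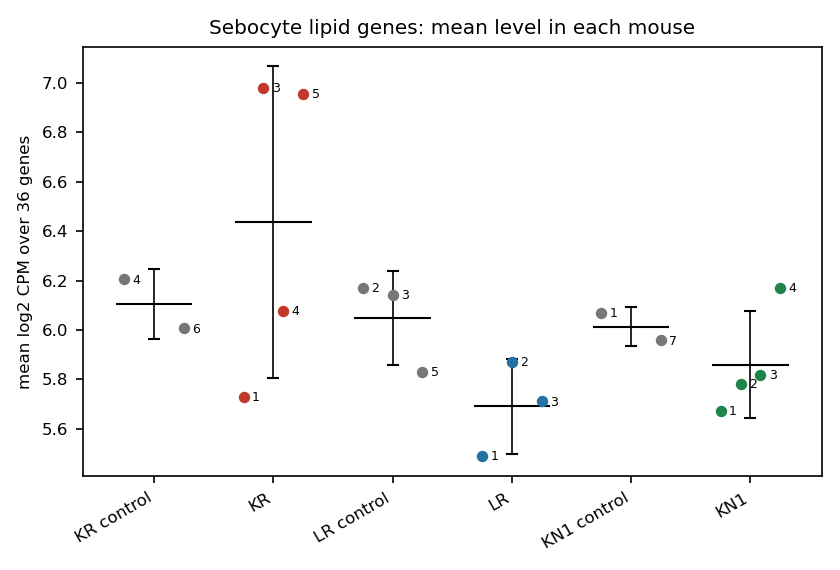
Mean log2 CPM over the 36 tested genes in each mouse (y axis) by group (x axis). Points are mice with their numbers, lines the group mean and bars ± SD; KR 3 and KR 5 lie at 6.98 and 6.96 while all other mice lie between 5.49 and 6.20.

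In LR skin 1 gene of the list, Me1, fell, and most of the others had negative values that did not pass the test. Mean log2 CPM over the list was 5.49, 5.87 and 5.71 in LR 1, LR 2 and LR 3 and 6.17, 6.14 and 5.83 in LR control 2, LR control 3 and LR control 5. LR 1 and LR 3 lay below every LR control, and LR 2 lay just above LR control 5. Me1, the malic enzyme that makes NADPH for fatty acid synthesis, was the 1 gene of 36 that passed the test, against 185 of 16517 (1.12%) over all genes and 0.248% called lower. The median log2 fold change was -0.50 over the list and -0.0041 over all genes, with 29 of 36 negative against 50.5%. Every LR mouse was below every LR control for 8 genes (Pparg, Acly, Me1, Acacb, Fasn, Acsl1, Mgst1 and Apoc1), against 9.29% of all genes. Hsd17b13 was the 1 gene with every LR mouse above every control, against 10.3%. Without the mice that express hair genes the median was -0.57 and no gene of the list passed.

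In KN1 skin Me1 was again the gene that fell, and most other values were negative and small. Mean log2 CPM was 5.67, 5.78, 5.82 and 6.17 in KN1 1, KN1 2, KN1 3 and KN1 4 and 6.07 and 5.96 in KN1 control 1 and KN1 control 7. KN1 1, KN1 2 and KN1 3 lay below both controls and KN1 4 above both. Me1 was the 1 gene of 36 past the test, against 325 of 16517 (1.97%) over all genes and 1.11% called lower. The list had a median log2 fold change of -0.15 against 0.02 over all genes, and 27 of 36 were negative against 48.2%. Every KN1 mouse was below both controls for 3 genes (Me1, Acsl1 and Hsd17b13), against 14.3% of all genes, and for 0 genes was every KN1 mouse above both, against 13.8%. Without the mice that express hair genes the median was -0.31, and no gene of the list passed.

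**Figure D2:**
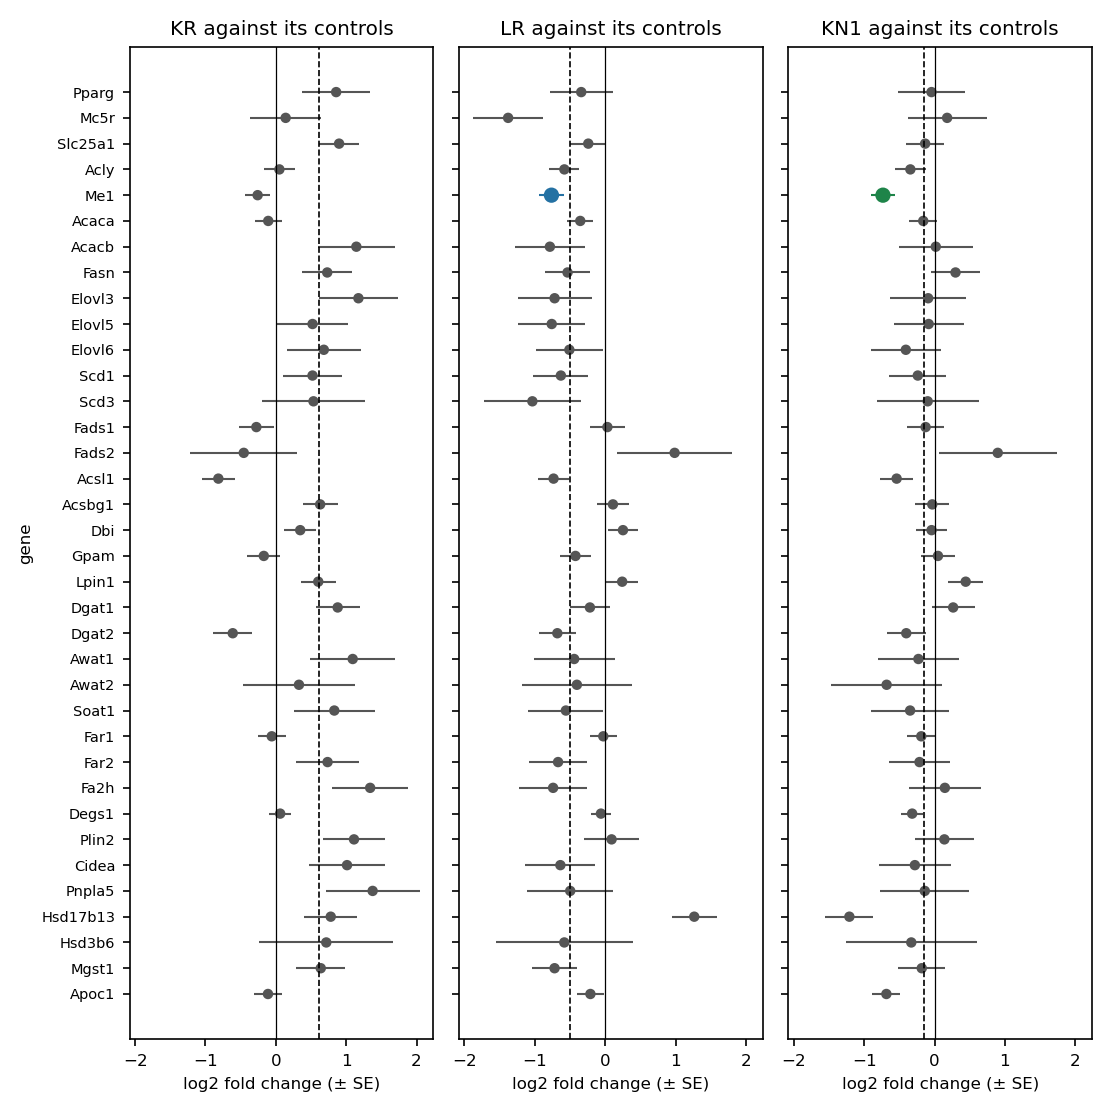
Log2 fold change of each of the 36 genes (y axis) against the mutant's own controls, with ± SE as bars (x axis), in KR, LR and KN1. The dashed line is the median of the 36 genes (0.62, -0.50 and -0.15), and large coloured points, Me1 in LR and in KN1, passed an adjusted p of 0.05.

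The 3 comparisons share no control mouse. For 17 of the 36 genes the log2 fold change was positive in KR and negative in both LR and KN1, a pattern of 7.74% of all genes. They include Scd1, Elovl6, Soat1, Far2, Cidea and Pparg. Another 6 were negative in all 3, against 25.1% of all genes: Acaca, Acsl1, Apoc1, Dgat2, Far1 and Me1. Lpin1, a phosphatidate phosphatase, and the droplet coat protein Plin2 were positive in all 3, against 27.7%. When the change itself was compared between KR and LR, none of the 36 genes passed (1 gene of 16517 did, 0.00605%), and 10 had an unadjusted p under 0.05 against 4.15% of all genes. The largest of these 10 differences was that of the fatty acid hydroxylase Fa2h, 2.08 ± 0.72 (SE) on the log2 scale (adjusted p = 0.98). The difference between KN1 and LR passed for 0 of 36 genes (0.00605% of all) in edgeR and for 1, Hsd17b13, in DESeq2, and that between KR and KN1 passed for 0 of 36 in both tools (0% of all genes in edgeR).

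Pparg, the nuclear receptor (chr6:115360951-115490399), was at 5.10, 30.4, 11.0 and 26.1 CPM in KR 1, KR 3, KR 4 and KR 5 and 11.4 and 8.56 CPM in KR control 4 and KR control 6. Levels were above both controls in KR 3 and KR 5, KR 4 lay between them and KR 1 was below both. The log2 fold change was 0.86 ± 0.48 (SE; adjusted p = 0.293). In the other cohorts it was at 7.29, 10.6 and 9.80 CPM in the LR mice and 10.6, 13.6 and 10.9 CPM in their controls, and at 6.93, 7.87, 7.75 and 12.3 CPM in the KN1 mice and 7.59 and 10.5 CPM in their controls. All LR mice were below their controls by a narrow margin (-0.34 ± 0.45, adjusted p = 0.77), and the KN1 groups overlapped (-0.04 ± 0.48, adjusted p = 0.972).

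Mc5r, the melanocortin receptor of the gland, was at 3.07, 6.81 and 4.74 CPM in LR 1, LR 2 and LR 3 and 6.38, 9.49 and 22.1 CPM in LR control 2, LR control 3 and LR control 5. LR 2 exceeded the lowest control, and LR control 5 was far above the other mice. Its log2 fold change of -1.38 ± 0.50 did not pass (adjusted p = 0.189), and without LR control 5 it was -0.70. In KR the values were 4.87, 16.8, 9.52 and 20.5 CPM in the KR mice and 11.6 and 12.0 CPM in their controls, again with KR 3 and KR 5 high. In KN1 they were 3.34, 3.82, 2.63 and 6.32 CPM in the KN1 mice and 3.21 and 4.02 CPM in their controls, with overlapping groups and the lowest control level of the 3 cohorts.

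Among the genes that supply citrate, acetyl-CoA and NADPH, Me1 (chr9:86581371-86695953, minus strand) gave the 2 calls of the list. Its level was 222, 267 and 147 CPM in LR 1, LR 2 and LR 3 and 323, 353 and 404 CPM in LR control 2, LR control 3 and LR control 5. It was 206, 196, 185 and 196 CPM in KN1 1, KN1 2, KN1 3 and KN1 4 and 368 and 283 CPM in KN1 control 1 and KN1 control 7. In the KR cohort it was 239, 289, 272 and 248 CPM in KR 1, KR 3, KR 4 and KR 5 and 317 and 309.6 CPM in KR control 4 and KR control 6. Every mutant mouse of all 3 groups was below every one of its own controls, and the 4 KN1 mice lay close together. Me1 fell in LR by 0.76 ± 0.17 (SE) on the log2 scale (adjusted p = 0.0356) and in KN1 by 0.73 ± 0.18 (adjusted p = 0.0404). In KR its log2 fold change of -0.26 ± 0.18 did not pass (adjusted p = 0.394). Both calls were close to the threshold. Without the 8 mice that express hair genes its value was -1.04 (adjusted p = 0.175) for LR and -0.75 (adjusted p = 0.595) for KN1. With the hair gene level as a covariate it was -0.79 (adjusted p = 0.0408) for LR and -0.78 (adjusted p = 0.0649) for KN1. Leaving out any 1 of LR control 3, LR control 5, LR 1, LR 3 or KN1 4 ended the call in LR, with adjusted p from 0.0510 to 0.184. In KN1 it ended without either KN1 control, any KN1 mouse, KR control 4, KR 3, KR 4, KR 5, LR control 3 or LR 1 (adjusted p 0.0501 to 0.200).

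Slc25a1, the mitochondrial citrate carrier, was at 108, 200.3, 122 and 174 CPM in KR 1, KR 3, KR 4 and KR 5 and 76.0 and 86.1 CPM in KR control 4 and KR control 6. Every KR mouse was above both controls, and KR 3 and KR 5 were again highest. Its log2 fold change was 0.90 ± 0.28 (adjusted p = 0.0903). Without LR control 5, a mouse of another cohort that enters through the shared estimate of spread, it passed in KR (adjusted p = 0.032). ATP citrate lyase, Acly, which makes acetyl-CoA from citrate, had -0.58 ± 0.21 in LR with every LR mouse below the controls (adjusted p = 0.19) and 0.05 ± 0.23 in KR.

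Fasn, the synthase that builds palmitate (chr11:120805846-120824547, minus strand), was at 537, 1764, 675 and 1275 CPM in KR 1, KR 3, KR 4 and KR 5 and 688 and 594 CPM in KR control 4 and KR control 6. The 2 high mice were KR 3, then KR 5, and KR 1 and KR 4 were near the controls. In LR it was at 502, 549 and 515 CPM in LR 1, LR 2 and LR 3 and 739, 799 and 731 CPM in LR control 2, LR control 3 and LR control 5. The LR groups did not overlap and were each narrow, but the log2 fold change of -0.54 ± 0.33 did not pass in the fit over all 18 mice (adjusted p = 0.448). Fasn did not pass in LR with each cohort fitted alone either. For KR the log2 fold change was 0.73 ± 0.36 (adjusted p = 0.231), and for KN1 0.30 ± 0.35 (adjusted p = 0.693). In KN1, with 429, 488, 509 and 778 CPM in the KN1 mice and 395 and 501 CPM in their controls, KN1 4 was the high mouse. For the acetyl-CoA carboxylases, the log2 fold change in KR was -0.11 ± 0.19 for Acaca and 1.14 ± 0.55 for Acacb, neither past the test.

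Of the 3 elongases, Elovl3 had the smallest unadjusted p. It was at 24.2, 93.7, 42.2 and 88.4 CPM in KR 1, KR 3, KR 4 and KR 5 and 21.2 and 34.1 CPM in KR control 4 and KR control 6. KR 3, KR 4 and KR 5 were above both controls, and KR 1 lay between them. For Elovl3 the change on the log2 scale was 1.17 ± 0.56 (adjusted p = 0.228) in KR, -0.72 ± 0.52 (adjusted p = 0.543) in LR and -0.09 ± 0.54 (adjusted p = 0.948) in KN1. The LR cohort had 16.2, 17.2 and 14.4 CPM in the LR mice and 31.2, 33.3 and 14.7 CPM in their controls, and the KN1 cohort had 21.4, 24.7, 45.1 and 51.0 CPM in the KN1 mice and 20.5 and 55.9 CPM in their controls. Both overlapped. Elovl6, which lengthens palmitate, showed the split among KR mice at high counts, with 462, 2521, 605 and 2272 CPM in KR 1, KR 3, KR 4 and KR 5 and 1009 and 817 CPM in KR control 4 and KR control 6. KR 1 and KR 4 were below both controls and KR 3 and KR 5 more than 2-fold above either. All 3 elongases had positive values in KR (0.52 to 1.17) and negative values in LR (-0.76 to -0.51) and KN1 (-0.41 to -0.08), none past the test.

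Scd1, which introduces the double bond of sebum fatty acids (chr19:44394455-44407879, minus strand), was the most abundant of the genes. It was at 1104, 4556, 1871 and 4100.0 CPM in KR 1, KR 3, KR 4 and KR 5 and 2261 and 1792 CPM in KR control 4 and KR control 6. In the LR cohort it was at 878, 1585 and 1062 CPM in LR 1, LR 2 and LR 3 and 1581, 1794 and 2081 CPM in LR control 2, LR control 3 and LR control 5. In the KN1 cohort it was at 928, 1016, 1067 and 1473 CPM in KN1 1, KN1 2, KN1 3 and KN1 4 and 1311 and 1333 CPM in KN1 control 1 and KN1 control 7. KR 3 and KR 5 had more than any other mouse, LR 2 reached the level of LR control 2, and KN1 4 was above both of its controls. Groups overlapped in all 3 cohorts, with 0.52 ± 0.42 (adjusted p = 0.472) in KR, -0.63 ± 0.39 (adjusted p = 0.458) in LR and -0.24 ± 0.41 (adjusted p = 0.802) in KN1 on the log2 scale. Its paralog Scd3 had 0.53 ± 0.74, -1.04 ± 0.69 and -0.10 ± 0.73 in the same order. Fads1 and Fads2, desaturases of polyunsaturated fatty acids, did not follow Scd1 in the mice: the 2 highest KR mice were KR 5 and KR 1 for Fads1, and KR 4 and KR 5 for Fads2, the latter on 0 to 47 counts.

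**Figure D3:**
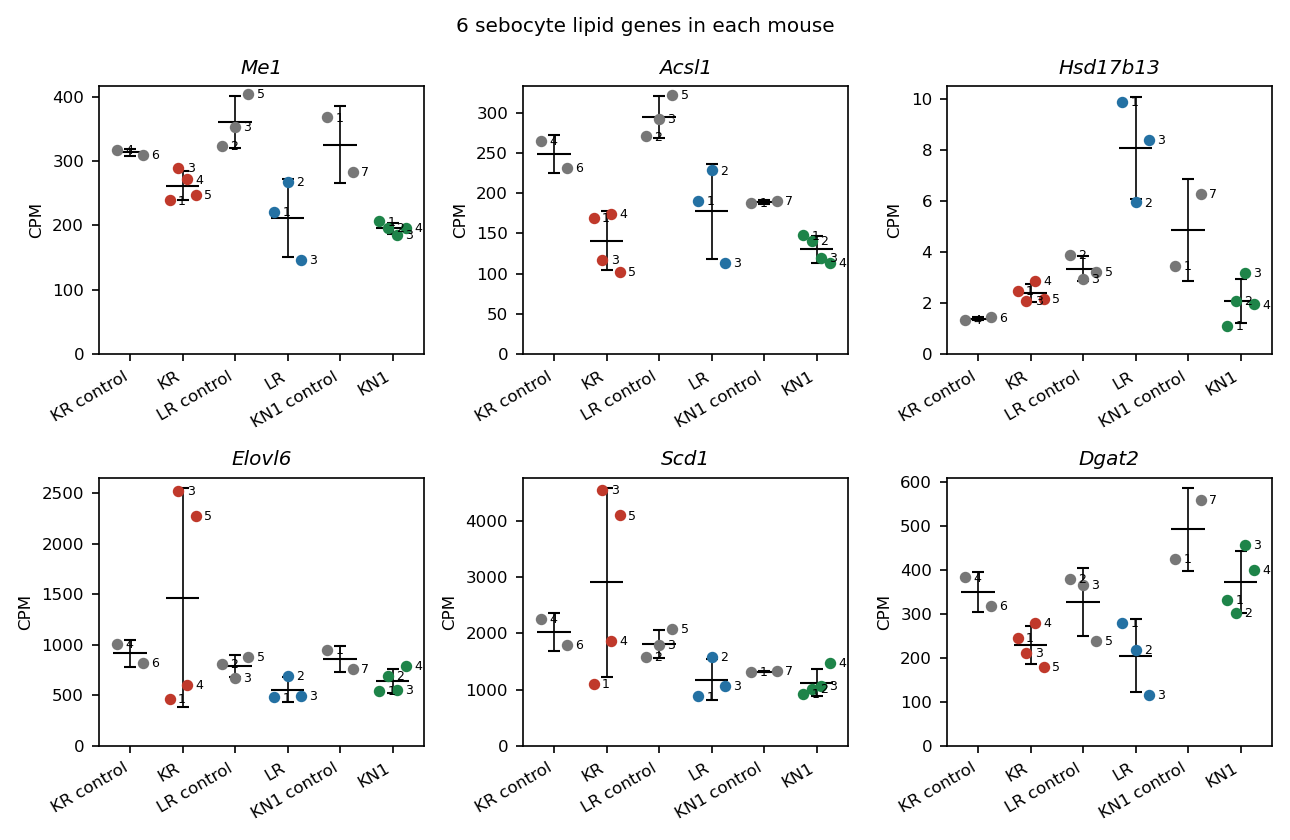
Level in CPM (y axis, from 0) of Me1, Acsl1, Hsd17b13, Elovl6, Scd1 and Dgat2 in each mouse, by group (x axis); points carry the mouse number, lines are group means and bars ± SD. KR 3 and KR 5 are the highest KR mice for Elovl6 and Scd1 and the lowest for Acsl1, Dgat2 and Hsd17b13, and Me1 is below the controls in all mutant mice.

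Acsl1 activates long-chain fatty acids to acyl-CoA (chr8:46471037-46536051, plus strand). It was at 169.8, 118, 175 and 102 CPM in KR 1, KR 3, KR 4 and KR 5 and 265 and 231 CPM in KR control 4 and KR control 6. In LR it was at 191, 228 and 113 CPM in the LR mice and 270.4, 292 and 322 CPM in their controls, and in KN1 at 148, 141, 119.7 and 113 CPM in the KN1 mice and 188 and 191 CPM in their controls. Every mutant mouse was below all of its own controls in the 3 cohorts, and in KR the mice with high Scd1, KR 3 and KR 5, had the least Acsl1. For Acsl1 the change on the log2 scale was -0.82 ± 0.23 (adjusted p = 0.0696) in KR, -0.73 ± 0.22 (adjusted p = 0.121) in LR and -0.54 ± 0.23 (adjusted p = 0.224) in KN1. None passed in the edgeR fit, while DESeq2 called it in KR and LR, and leaving out KR 4, LR control 5 or LR 3 brought it past the threshold in KR (log2 fold change from -0.94 to -0.69 over all left-out mice). Acsbg1, another acyl-CoA synthetase, had 0.63 ± 0.25 in KR with overlapping groups (adjusted p = 0.15).

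Dbi, the acyl-CoA binding protein, passed the test among the control groups of the 3 cohorts and in none of the mutants. The controls were at 76.9 and 100.1 CPM for KR, 93.3, 81.5 and 45.0 CPM for LR and 128 and 138 CPM for KN1. Both KN1 controls were above all others, and LR control 5 was the lowest. The mutants were at 107, 91.0, 129 and 123 CPM in KR, 101, 83.9 and 76.8 CPM in LR and 109, 142, 136 and 131 CPM in KN1, each overlapping its own controls (0.35 ± 0.22, 0.25 ± 0.21 and -0.04 ± 0.22 on the log2 scale). Over the 3 control groups 4 of 36 genes differed (Apoc1, Gpam, Hsd17b13 and Dbi; adjusted p = 0.00263, 0.00922, 0.0122 and 0.0261), against 25.8% of all genes. Batch, litter and line cannot be told apart here. Gpam, which adds the first acyl chain to glycerol-3-phosphate, was at 71.8 and 66.4 CPM in the KR controls, 56.3, 66.2 and 70.7 CPM in the LR controls and 37.8 and 23.7 CPM in the KN1 controls, so that KN1 controls were lowest. Its mutants were at 44.6, 73.9, 54.9 and 71.9 CPM in KR, 42.6, 58.0 and 43.5 CPM in LR and 40.3, 34.7, 22.4 and 30.3 CPM in KN1. Each overlapped its own controls, with log2 fold changes of -0.17 ± 0.23, -0.42 ± 0.22 and 0.05 ± 0.24.

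The 2 enzymes of the last step of triglyceride synthesis differed in how the KR mice were ordered. Dgat1 was at 38.2, 81.8, 34.1 and 61.1 CPM in KR 1, KR 3, KR 4 and KR 5 and 31.0 and 27.5 CPM in KR control 4 and KR control 6. All KR mice were above both controls, KR 3 and KR 5 most. Dgat2 was at 246, 211, 281 and 180.4 CPM in KR 1, KR 3, KR 4 and KR 5 and 383 and 319 CPM in KR control 4 and KR control 6. All KR mice were below both controls, and KR 3 and KR 5 were the lowest. The log2 fold change was 0.88 ± 0.31 for Dgat1 (adjusted p = 0.121) and -0.61 ± 0.28 for Dgat2 (adjusted p = 0.197). In LR, Dgat1 was at 33.5, 32.6 and 38.0 CPM in the LR mice and 52.0, 41.2 and 27.9 CPM in their controls with overlapping groups (-0.22 ± 0.29, adjusted p = 0.77). KN1 mice had 33.4, 37.9, 54.0 and 52.6 CPM of Dgat1 and their controls 35.3 and 38.7 CPM, also overlapping (0.26 ± 0.30). Dgat2 had negative values in LR (-0.68 ± 0.27, adjusted p = 0.221) and also KN1 (-0.40 ± 0.28, adjusted p = 0.457).

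Wax and sterol esters are made by Awat1, Awat2 and Soat1 from fatty alcohols, supplied by Far1 and Far2, and from sterols. Awat1, a wax alcohol acyltransferase, was at 10.3, 46.3, 11.3 and 42.8 CPM in KR 1, KR 3, KR 4 and KR 5 and 16.9 and 8.92 CPM in KR control 4 and KR control 6. Again KR 3 and KR 5 were far above KR 1 and KR 4, which lay between the controls. This gave a log2 fold change of 1.09 ± 0.60 (adjusted p = 0.289). Awat1 was at 4.99, 8.28 and 10.3 CPM in the LR mice and 14.3, 12.5 and 5.37 CPM in their controls (-0.44 ± 0.58), and at 12.4, 10.4, 13.1 and 21.8 CPM in the KN1 mice and 20.8 and 12.8 CPM in their controls (-0.23 ± 0.58), with overlapping groups. Awat2 was at 5.94, 54.2, 7.47 and 41.3 CPM in the KR mice and 35.6 and 7.39 CPM in their controls, and its 2 controls differed by more than 4-fold. For Soat1, a sterol acyltransferase, the KR values were 85.5, 494, 136 and 537 CPM in the KR mice and 208 and 144 CPM in their controls, again with KR 3 and KR 5 on top. Far1 varied little, with 35.9 to 44.7 CPM in all KR mice and 38.5 and 44.2 CPM in the controls, whereas Far2 ran from 103 to 402 CPM in KR mice. All 5 genes had negative values in LR (-0.67 to -0.03) and in KN1 (-0.68 to -0.19), and none passed.

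Fa2h puts a hydroxyl group on the fatty acids of sphingolipids. It was at 207, 1041, 347 and 939 CPM in KR 1, KR 3, KR 4 and KR 5 and 272 and 228 CPM in KR control 4 and KR control 6. In LR it was at 156, 162 and 179.7 CPM in LR 1, LR 2 and LR 3 and 347, 324 and 160.1 CPM in LR control 2, LR control 3 and LR control 5. The highest levels of all 18 mice were those of KR 3 and KR 5, KR 4 was above both controls, and KR 1 was below both. LR mice were alike and overlapped LR control 5 alone. KN1 mice, at 182, 236, 248 and 399 CPM, overlapped their controls at 229.5 and 252 CPM. For Fa2h the change on the log2 scale was 1.34 ± 0.54 (adjusted p = 0.162) in KR, -0.74 ± 0.48 (adjusted p = 0.486) in LR and 0.15 ± 0.51 (adjusted p = 0.906) in KN1. Without the mice that express hair genes the KR value was -0.43, from KR 1 against KR control 4 alone. Degs1, the dihydroceramide desaturase, had 0.06 ± 0.15 in KR, -0.06 ± 0.15 in LR and -0.32 ± 0.15 in KN1, none past the test.

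Of the droplet proteins, Hsd17b13 had the smallest unadjusted p, on 9 to 103 counts per mouse. It was at 9.88, 5.95 and 8.40 CPM in LR 1, LR 2 and LR 3 and 3.90, 2.94 and 3.22 CPM in LR control 2, LR control 3 and LR control 5. In KN1 it was at 1.11, 2.08, 3.18 and 1.95 CPM in KN1 1, KN1 2, KN1 3 and KN1 4 and 3.47 and 6.29 CPM in KN1 control 1 and KN1 control 7. In KR it was at 2.49, 2.08, 2.87 and 2.17 CPM in KR 1, KR 3, KR 4 and KR 5 and 1.35 and 1.44 CPM in KR control 4 and KR control 6. Groups did not overlap in any cohort: LR and KR mice were above, KN1 mice below their controls. The log2 fold change was 1.27 ± 0.32 in LR (adjusted p = 0.0617), -1.21 ± 0.34 in KN1 (adjusted p = 0.0748) and 0.78 ± 0.37 in KR (adjusted p = 0.22). The controls themselves differed, with the KR controls lowest. DESeq2 called it in LR (adjusted p = 0.0158) and KN1 (adjusted p = 0.0402). Plin2, the general droplet coat protein, was at 83.9, 341, 136 and 342 CPM in the KR mice and 119 and 89.9 CPM in their controls, and KR 3 and KR 5 held nearly the same amount. On the log2 scale the value was 1.11 ± 0.44 (adjusted p = 0.155) in KR and 0.09 ± 0.40 in LR. Cidea, which enlarges droplets, had 1.01 ± 0.54 and the lipase-family gene Pnpla5 1.38 ± 0.67 in KR, neither past the test.

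Apoc1 was at 119.9, 122, 204 and 157 CPM in KN1 1, KN1 2, KN1 3 and KN1 4 and 203 and 282 CPM in KN1 control 1 and KN1 control 7. KN1 3 just exceeded KN1 control 1, and the other KN1 mice were below both controls. The log2 fold change was -0.68 ± 0.20 (adjusted p = 0.0851). The KN1 controls were also the highest of the 3 control groups, where the KR controls had 126 and 145 CPM and the LR controls 114, 106 and 108 CPM, and against all 7 controls pooled the value was -0.04. LR mice had 102, 83.0 and 98.9 CPM (-0.21 ± 0.19), all just below their controls, and KR mice had 111, 103, 133 and 154 CPM (-0.11 ± 0.20), overlapping theirs. Mgst1, a microsomal glutathione transferase, had 0.64 ± 0.35 in KR and -0.72 ± 0.32 in LR, where every LR mouse was below the controls (adjusted p = 0.297). Hsd3b6, a steroid dehydrogenase, was at 5.34, 13.1, 5.94 and 50.6 CPM in the KR mice and 16.5 and 6.13 CPM in their controls, and here KR 5 alone was high.

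The spread between mice of a group was largest in KR. The median SD of log2 CPM among the 4 KR mice was 0.81 over the 36 genes and 0.23 over all tested genes. In the other 5 groups it was 0.20 to 0.35 for the list and 0.16 to 0.30 for all genes. The highest KR mouse was more than 4-fold above the lowest for 13 of 36 genes, against 4.18% of all genes, and more than 2-fold for 21, against 20.5%. Among KN1 mice these counts were 0 of 36 (5.06%) and 11 of 36 (24.6%), and among LR mice 1 (2.55%) and 9 (15.5%). The widest were Awat2, Hsd3b6, Soat1 and Elovl6, with SDs of 1.63, 1.48, 1.33 and 1.27 on the log2 scale, and the narrowest were Me1 (0.13) and Far1 (0.14). The biological coefficient of variation fitted over all mice had a median of 0.306 for the list and 0.199 for all genes, and 27 of 36 genes were above the latter.

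The same mice were at the top for gene after gene. KR 3 and KR 5 were the 2 highest KR mice for 28 of 36 genes, against 18.6% of all genes. KR 1 was the lowest for 28 of 36, against 27%. KR 3 was above both KR controls for 28 genes, KR 5 for 29, KR 4 for 9 and KR 1 for 5, where 41.3%, 41.8%, 37.3% and 41.4% of all genes were. In 3 genes the order was turned and KR 1 and KR 4 were the 2 highest: Acsl1, Dgat2 and Hsd17b13. Among KN1 mice, KN1 4 was the highest for 24 of 36 genes, against 20.9% of all genes, and stood above both controls for 19 (36.9% of all genes), while KN1 1 was below both for 25 (35.3%). Among LR mice, LR 1 was the lowest for 23 of 36, against 32.3%. The summed CPM of the list gives the scale: 5007, 15895, 6779 and 14104 CPM in KR 1, KR 3, KR 4 and KR 5, against 7971 and 6695 CPM in KR control 4 and KR control 6.

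**Figure D4:**
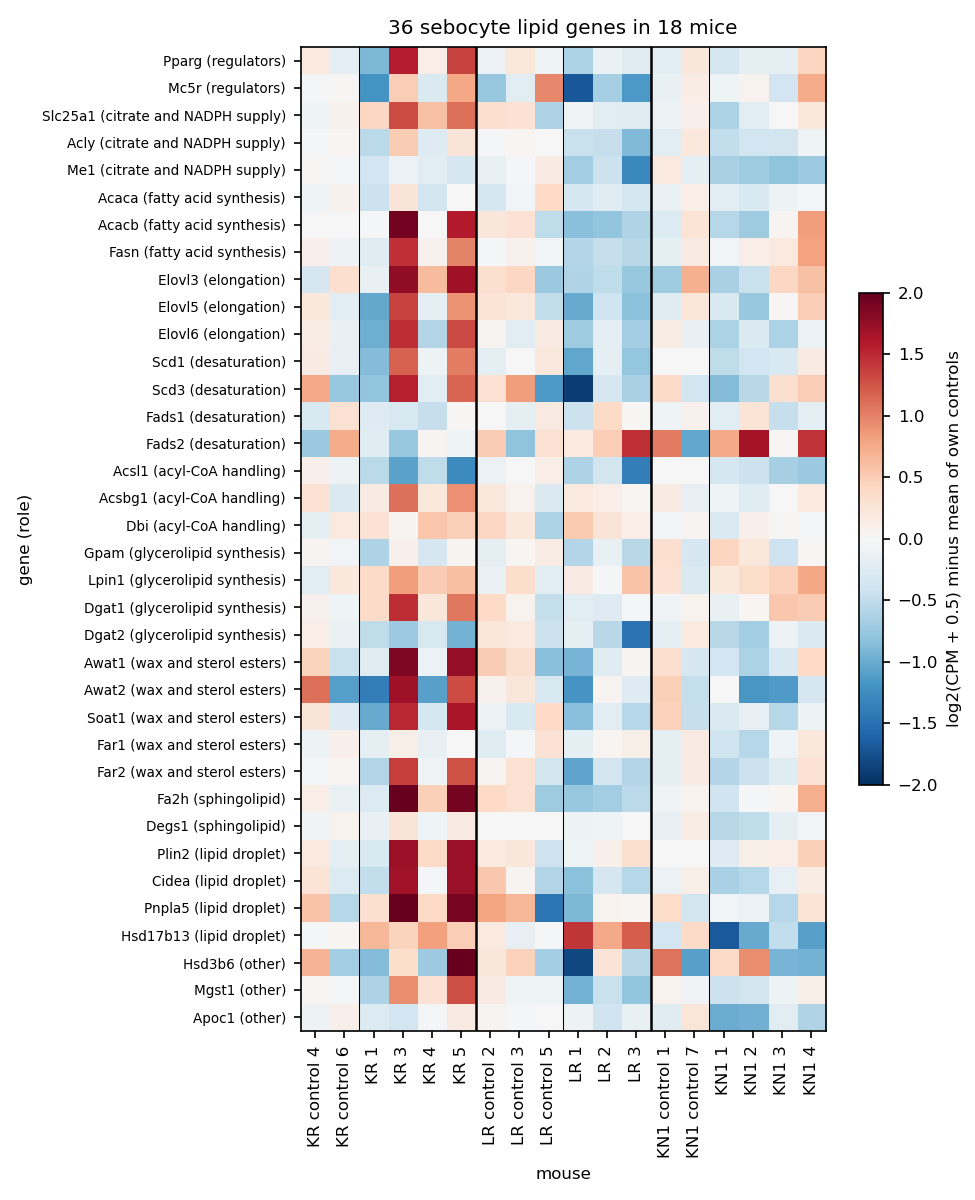
Heat map of the 36 tested genes (rows, with their role) in 18 mice (columns), coloured by log2(CPM + 0.5) minus the mean of the mouse's own controls; red is higher and blue lower, with colours limited to 2 in either direction. The columns of KR 3 and KR 5 are red for most genes and blue for Acsl1 and Dgat2.

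Other features of the libraries moved with these mice. By Xist and the Y-linked gene Ddx3y, KR 3, KR 5 and KR control 4 were female and KR 1, KR 4 and KR control 6 male. Against the control of the same sex, KR 3 was higher for 29 of 36 genes and KR 5 for 33, while KR 4 was higher for 20 and KR 1 for 8, where 50.1% to 52.1% of all genes were. LR 1, LR control 2 and LR control 3 were male, and LR 2, LR 3 and LR control 5 female. LR 1 was higher for 4 of 36 genes against each male control. Against LR control 5, LR 2 was higher for 19 and LR 3 for 16 (49.3% to 50.5% of all genes in LR). In KN1 the same-sex counts were 4, 11, 9 and 25 for KN1 1, KN1 2, KN1 3 and KN1 4 (48.6% to 51.6%). By mean log2 CPM over the list, the highest LR mouse, LR 2, was female and the lowest, LR 1, male, while LR control 5, the lowest LR control, was female. The highest KN1 mouse, KN1 4, was male and the lowest, KN1 1, female, while KN1 control 1, the higher KN1 control, was female. With sex as a covariate, 0 of the 36 genes passed in KR, with a median of 0.51. Summed suprabasal keratinocyte markers (11 genes) were at 28784, 17549, 25145 and 13091 CPM in KR 1, KR 3, KR 4 and KR 5 and 32680.4 and 32692 CPM in KR control 4 and KR control 6, lowest in KR 3 and KR 5, the mice with the least Acsl1 and Dgat2. In LR these markers summed to 32454, 27358 and 12144 CPM in LR 1, LR 2 and LR 3 and 39314, 36168 and 22117 CPM in LR control 2, LR control 3 and LR control 5, and LR 3, the lowest, also had the least Me1, Acsl1 and Dgat2 of its cohort. In KN1 they summed to 40164, 37948, 46459.6 and 39408 CPM in the KN1 mice and 46421 and 44832 CPM in their controls. Me1 did not go with the sums in KR, where KR 3 had the most (289 CPM) and KR 1 the least (239 CPM) of the KR mice. Among KN1 mice, KN1 3, with the highest sum, had the least Me1 (185 CPM) and the most Dgat2 (457 CPM). KN1 4 had the least Acsl1 (113 CPM), and KN1 2, with the lowest sum, had the least Dgat2 (302 CPM). The part of these markers, and of sex, in the results was not tested further.

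All 20 hair matrix markers were tested and 0 passed in KR, LR or KN1. At an unadjusted p under 0.05 there were also 0, against 22.9%, 15.5% and 18.5% of all genes. One of the markers, Gata3, was high in every mouse (378 to 1100 CPM), so it is left out of the sums. The other 19 summed to 25.8, 199.9, 622 and 1074 CPM in KR 1, KR 3, KR 4 and KR 5 and 32.5 and 616 CPM in KR control 4 and KR control 6. KR 1 and KR control 4 had little of them, and KR 4 had more than KR 3. In LR the 19 genes summed to 31.9, 1109.6 and 41.8 CPM in LR 1, LR 2 and LR 3 and 644, 24.5 and 16.1 CPM in LR control 2, LR control 3 and LR control 5, and LR 2, the highest LR mouse for the lipid genes, and LR control 2, the highest LR control, were the 2 high mice. In KN1 they summed to 53.1, 1061, 53.6 and 330.3 CPM in KN1 1, KN1 2, KN1 3 and KN1 4 and 27.1 and 22.9 CPM in KN1 control 1 and KN1 control 7, with the median log2 fold change of the 20 markers at 5.00 and 11 of them higher in every KN1 mouse than in both controls, against 13.8% of all genes. KN1 2 and KN1 4 were the high mice there, and KN1 4 was also the highest for the lipid genes. KN1 2, with the highest hair gene sum of its cohort, had a mean log2 CPM of 5.78 over the lipid genes. That was below both of its controls (6.07 and 5.96). KR control 6, with the higher hair gene sum of the KR controls, had the lower lipid mean (6.01 against 6.20). With the log2 hair gene sum as a covariate, the median of the lipid genes was 0.45 in KR, -0.56 in LR and -0.36 in KN1. The part of hair growth in the results was not tested further.

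Adipocytes use many of the same enzymes. Their markers Cfd, Cidec and Car3 had at most 10, 14 and 12 counts in any mouse, and Adipoq, Lep, Retn, Plin1 and Pck1 are not analysed here. The summed level of the 7 adipocyte markers with a row was 41.8, 45.2, 41.8 and 55.9 CPM in the KR mice and 22.0 and 33.5 CPM in their controls, higher in all KR mice and highest in KR 5 and KR 3. Of these, 4 were tested and 1, Lipe, rose in KR, where 0.696% of all genes were called higher. Among KR mice, Lipe and Adrb3 were highest in KR 1 (14.5 and 14.2 CPM), Fabp4 in KR 4 (4.20 CPM) and Lpl in KR 5 (32.3 CPM). The part of adipocytes in the result was not tested. Sums over 7 markers of sebaceous duct and upper follicle were 5165, 6146, 5636 and 5429 CPM in the KR mice and 4311 and 6449 CPM in their controls, with KR 1 and KR 4 in the range of KR 3 and KR 5. In LR they summed to 4581, 3082 and 4095 CPM in the LR mice and 4257, 4036 and 3222 CPM in their controls, and 1 of the 7 passed, against 1.12% of all genes. That gene, Gata6, a transcription factor of the sebaceous duct, rose from 30.6, 42.7 and 44.6 CPM in the LR controls to 109.9, 67.3 and 137 CPM in LR 1, LR 2 and LR 3 (1.41 ± 0.21, adjusted p = 0.00159). The duct keratin Krt79 was lower in every LR mouse than in every control without passing (-0.72 ± 0.26, adjusted p = 0.176). In KN1 the sums were 5505, 10016, 7008 and 8092 CPM in the KN1 mice and 4836 and 6921 CPM in their controls, and 0 of 7 passed. The part of duct cells in the results was not tested.

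Other genes of the pathway were counted from 3 lists, to be read against the 1.6%, 1.12% and 1.97% of all genes that passed in KR, LR and KN1. An unadjusted p under 0.05 was reached by 22.9%, 15.5% and 18.5% of all genes in KR, LR and KN1. Among 17 regulators of lipid synthesis, 0 passed in any of the 3, and 4, 1 and 4 had an unadjusted p under 0.05. Srebf1, the sterol response factor that drives fatty acid synthesis genes, was at 337, 473, 315 and 421 CPM in KR 1, KR 3, KR 4 and KR 5 and 291 and 232 CPM in KR control 4 and KR control 6. All KR mice were above both controls, KR 3 and KR 5 most (log2 fold change 0.56 ± 0.19, adjusted p = 0.114). It was 0.04 in LR and 0.20 in KN1. Among 35 other enzymes of lipid synthesis, 0 passed in any mutant (7, 4 and 1 at an unadjusted p under 0.05), with a KR median of 0.25, an LR median of -0.19 and a KN1 median of -0.17. Their summed CPM was 2757, 5615, 3249 and 5666 CPM in the KR mice and 3716 and 3837 CPM in their controls, with the same 2 mice, KR 3 and KR 5, above the rest. Of 11 lipolysis and droplet coat genes outside the list, 1 rose and 1 fell in KR, 0 passed in LR (2 at an unadjusted p under 0.05) and 1 fell in KN1.

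Lipe, the hormone-sensitive lipase, rose in KR. It was at 14.5, 11.6, 9.01 and 13.6 CPM in KR 1, KR 3, KR 4 and KR 5 and 7.00 and 6.40 CPM in KR control 4 and KR control 6. All KR mice were above both controls, KR 1 most, so its order differed from that of Scd1 (log2 fold change 0.86 ± 0.21, adjusted p = 0.048). Abhd5, the activator of the main triglyceride lipase, fell in KR, with 78.5, 68.1, 78.4 and 66.1 CPM in KR 1, KR 3, KR 4 and KR 5 and 113 and 114 CPM in KR control 4 and KR control 6. The groups did not overlap, and KR 3 and KR 5 were the lowest (log2 fold change -0.64 ± 0.15, adjusted p = 0.0399). LR (-0.56, adjusted p = 0.0664) and KN1 (-0.55, adjusted p = 0.0627) had values below 0 that did not pass. Bscl2, seipin, which shapes new lipid droplets, fell in KN1 from 160.1 and 166 CPM in the controls to 102, 99.2, 125 and 101 CPM in KN1 1, KN1 2, KN1 3 and KN1 4. The groups did not overlap (log2 fold change -0.61 ± 0.14, adjusted p = 0.0369). The calls of Lipe, Abhd5 and Bscl2 were all close to the threshold and rest on 2 controls per cohort. Their values with mice left out are not given here.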

How the data were processed

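One library per mouse was measured in 18 mice. Raw read counts per gene, not normalized, were deposited as 1 table. Per the submitters' processing notes, the authors used STAR, HTSeq and DESeq2 with build mm10; versions, and whether strand was used, are not given in the sources used here. Column names matched 1 mouse each. Every deposited row had a total of at least 18 counts, and filterByExpr kept 16517 genes.

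Mutants were compared with their own controls by the two-sided quasi-likelihood test of edgeR 4.0.16 (R 4.3.3; TMM factors, robust, 6 group means over 18 mice), with Benjamini-Hochberg adjustment over all tested genes at 0.05. Differences between mutants and among control groups came from the same fit. SEs come from the F statistic. CPM were computed from counts and effective library sizes, and mean log2 CPM with a prior count of 2. The code was tested on simulated data. DESeq2 1.42.0 and other settings were alternatives; sex as a covariate, the summed hair matrix genes other than Gata3 as a covariate, and leaving out the 8 mice where that sum was over 100 CPM (200 to 1110 CPM, against at most 53.6 in the others) were added after seeing the data.

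Genes, lists and roles were chosen with earlier results of these data known. Values in every mouse are given for genes called in any test, for the gene with the smallest unadjusted p of each role, and for Scd1, Fasn, Pparg, Mc5r and Awat1. Slc25a1, Dgat2, Elovl6, Awat2, Soat1, Plin2 and Hsd3b6 were added after their values were seen. Coordinates are from GENCODE M21 (GRCm38).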

Additional observations from a re-analysis of the deposited data

Results flagged for a closer look

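For Hsd17b13, every LR mouse lay above and every KN1 mouse below the mean of its own controls. The log2 difference of the fold changes, KN1 minus LR, was -2.48 ± 0.47 (SE; adjusted p = 0.0683 by edgeR's quasi-likelihood test), and it passed with DESeq2 (adjusted p = 0.00215) and with sex as a covariate. For the same gene, every KR mouse lay above and every KN1 mouse below the control mean, with a difference, KR minus KN1, of 1.99 ± 0.51 (adjusted p = 0.386). For Dgat1, every KR mouse lay above and every LR mouse below the control mean, with a difference, KR minus LR, of 1.10 ± 0.42 (adjusted p = 0.98). None of the 3 passed the edgeR test. No mouse stood apart from the other 3 of its group in the 30 comparisons checked in groups of 4 mice.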

How the results depend on the processing

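The medians of the list kept their sign and moved by less than the spread between mice under every alternative run except 1 in KR, with lowest and highest values, leaving out 1 mouse at a time, of 0.36 to 0.80 in KR, -0.66 to -0.34 in LR and -0.33 to -0.10 in KN1. With 1 mouse left out, list genes called ran from 0 to 2 in each of KR, LR and KN1 and from 0 to 5 among control groups; all genes called ran from 5 (without KR control 6) to 1353 (without LR control 5) in KR, 60 (without LR 3) to 246 in LR and 2 (without KN1 control 7) to 640 (without LR control 5) in KN1. DESeq2 called 2, 3 and 3 list genes in KR, LR and KN1, 1036, 539 and 789 genes of all, and 1 list gene in KN1 minus LR. Without the controls that carry a second name (KR control 6, LR control 5, KN1 control 7), list genes were 0 in LR, KN1 and among control groups, and all genes 32 in KR and 41 in KN1. Fitting each cohort alone gave 672, 66 and 98 genes in KR, LR and KN1 and 0 list genes in LR and KN1. Pooling all 7 controls gave 3 list genes each and 809, 1052 and 1867 genes. Sex as a covariate gave 531 genes in KR, 2 list genes each in LR and KN1 and 1 in KN1 minus LR. Leaving out the 8 mice that express hair genes, an alternative added after seeing the data, left 1 mouse each in KR and its controls. The KR median was then -0.49 and Fa2h in KR -0.43. List genes were 0 in LR and KN1, and all genes 40 in LR and 0 in KN1. With the hair gene level as a covariate, also added, 134 genes and 0 list genes passed in KN1. Causes were not tested. Me1 ranged from -1.04 to -0.56 in LR (adjusted p 0.00149 to 0.198) and from -0.91 to -0.54 in KN1 (0.00491 to 0.595). Same-numbered LR mice and controls share only a number (correlations of deviations 0.07 and -0.08); with the replicate block, 137 genes and 1 list gene passed in LR, Dgat2 in place of Me1 (-0.77, adjusted p = 0.0887). KR and KN1 have 2 controls each, and Hsd17b13 and Fads2 rest on few counts.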
